A study of Homo sapiens with 32 samples.

Results

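Long noncoding RNA (lncRNA) genes that lie outside protein-coding genes held 22980 of the 457526 peaks of N6-methyladenosine (m6A) called on chromosomes 1 to 22, or 5.02%. A peak was taken as lncRNA-only if its midpoint lay in the body of a gene annotated as lncRNA or ncRNA in the RefSeq gene table of GRCh38.p14 and in the body of no protein-coding gene. The 16 lists hold 474004 peaks in all, and the 16478 peaks outside the autosomes were not used. The lncRNA-only peaks lay in 2216 of the 17845 lncRNA and ncRNA genes of the autosomes, only 2 of which were of the ncRNA class. In 1442 peaks the midpoint lay in more than 1 such gene, and these peaks were counted for each. The table has no exons and the lists have no strand, so a peak in a lncRNA gene body cannot be told apart from a peak on a transcript of the opposite strand or on an unannotated extension of a neighbouring gene. The median distance from a lncRNA-only peak to the nearest protein-coding gene was 21381 bp, and 27.4% of the peaks lay within 5000 bp of one.

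m6A is written on nascent RNA by a nuclear complex around METTL3 and METTL14, is recognized by reader proteins of the YTH and IGF2BP families, and can be removed by FTO and ALKBH5. LncRNAs are transcribed by RNA polymerase II like mRNAs but have no long open reading frame. Many stay in the nucleus, where MALAT1 sits in nuclear speckles and NEAT1 scaffolds paraspeckles, and others act in the cytoplasm or serve as host transcripts of small nucleolar RNAs and microRNAs. SETD2 places trimethylation on lysine 36 of histone H3 in transcribed gene bodies, and the study asked how its loss and its return change where m6A is found.

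m6A was mapped by MeRIP-seq, in which fragments of total RNA are pulled down with an antibody against m6A and compared with the Input. The cells were 786-O, a clear cell renal cell carcinoma (ccRCC) line, and RPTEC, an immortalized renal proximal tubule epithelial line. Each was studied as the unedited WT parent, as the CRISPR/Cas9 clones SETD2KO-1 and SETD2KO-2, and as SETD2KO-1R, which is SETD2KO-1 carrying a tagged SETD2 transgene, with 2 immunoprecipitated (IP) libraries per line and no other treatment. SETD2KO denotes both knockout clones together, and SETD2-expressing denotes WT, which carries no transgene, together with SETD2KO-1R. Each knockout line is 1 clone and each SETD2 status is 2 lines per cell line, so that tests over the 4 SETD2KO and 4 SETD2-expressing libraries measure the spread between libraries. With lines as the units no exact permutation test can go below p = 0.333. Nothing in the labels says that the 2 libraries of a line came from separate cultures. The lists of the 2 cell lines carry different experiment labels, so that cell line and experiment cannot be told apart.

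The lists gave 18432 to 38317 autosomal peaks per library, and no read counts, so the depth behind a peak is unknown. The score of a peak is a whole number of unstated scale and was used only as a percentile within its own list, where 100 is the highest. PAX8 and PAX2, transcription factors of the renal lineage, had peaks in all 16 libraries, and CDH16, a kidney cadherin, in 3. SETD2 itself had peaks in every library, knockouts included, and such peaks on the transcript are no check of the protein. In RPTEC it had 6, 4, 4 and 5 peaks in the SETD2KO and 7, 10, 11 and 10 in the SETD2-expressing libraries, without overlap. Of all genes called in all 8 RPTEC libraries, 1.67% had SETD2KO counts below in the same way. In 786-O SETD2 had 5, 10, 5 and 4 against 8, 10, 7 and 9, with overlap. A gene without a peak may be unmethylated or too weakly expressed, which cannot be told apart in these lists.

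Peaks over the start of a lncRNA were a minority. Of the peaks in lncRNA genes with a known strand, 16.9% had their midpoint within 1000 bp of the annotated start of transcription. A start lay under a lncRNA-only peak in at least 1 library for 337 of the 1497 called genes that have a start window in the RefSeq promoter table, and in all 16 libraries for 3 genes, MALAT1, SNHG5 and ST20. The windows of MALAT1 (chr11:65498795-65499094, plus strand) and of SNHG5, a small nucleolar RNA host gene (chr6:85678684-85678983, minus strand), are printed because their starts were covered throughout. Each window runs 5′ to 3′ on the strand of the gene in GRCh38.p14. The 50 bases from the promoter-table start, here called the transcribed bases, are in capitals. For MALAT1 that start, chr11:65499045, lies inside the gene body, which begins at 65497738.
MALAT1: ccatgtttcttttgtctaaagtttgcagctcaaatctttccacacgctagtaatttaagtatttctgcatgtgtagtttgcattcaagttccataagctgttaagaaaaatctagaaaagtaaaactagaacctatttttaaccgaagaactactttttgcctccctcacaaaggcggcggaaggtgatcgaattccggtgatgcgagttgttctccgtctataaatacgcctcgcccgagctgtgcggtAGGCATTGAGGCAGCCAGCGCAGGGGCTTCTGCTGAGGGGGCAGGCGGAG
SNHG5: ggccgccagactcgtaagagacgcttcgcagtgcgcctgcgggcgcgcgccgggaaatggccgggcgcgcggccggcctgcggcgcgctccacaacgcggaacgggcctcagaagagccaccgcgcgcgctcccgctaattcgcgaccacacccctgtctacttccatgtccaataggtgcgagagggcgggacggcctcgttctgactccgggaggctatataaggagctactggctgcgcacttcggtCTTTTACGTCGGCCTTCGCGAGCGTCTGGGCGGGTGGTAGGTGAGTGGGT

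In 786-O the starts of 5 lncRNA genes lay under a peak in all 4 SETD2KO libraries and in none of the 4 SETD2-expressing libraries, out of 311 starts called in that cell line, or 1.61%. The share over the starts of all autosomal genes was 0.316%, and in RPTEC no lncRNA start behaved so out of 185, against 0.158% of all starts. The lncRNA starts were set against lncRNA-only peaks, and all starts against all autosomal peaks. A peak over a lncRNA start with its midpoint in a protein-coding gene was counted for the second alone. These shares are thus not fully alike. The reverse pattern was seen at no lncRNA start in either cell line. The 5 genes were HCP5, a transcript of the major histocompatibility complex class I region, its neighbour HCG26, MAGI2-AS3, antisense to the scaffold gene MAGI2, LOC105373915 and KIAA0087. They were singled out after their values were seen. At KIAA0087 the midpoints of the peaks lay mostly in another lncRNA gene, and its window is not printed. The other 4 windows are shown because in 786-O their start base lay under a peak in the SETD2KO libraries alone. At HCP5, HCG26 and LOC105373915 no peak was called in the merged region around the start in the 4 SETD2-expressing libraries. At MAGI2-AS3 that region held a peak in 3 of those 4 as well, which did not reach the start. The MAGI2-AS3 start of the promoter table, chr7:79453960, lies inside the gene body, which begins at 79452957. They are HCP5 (chr6:31462930-31463229, plus strand), HCG26 (chr6:31470979-31471278, plus strand), MAGI2-AS3 (chr7:79453710-79454009, plus strand) and LOC105373915 (chr2:226466915-226467214, minus strand).
HCP5: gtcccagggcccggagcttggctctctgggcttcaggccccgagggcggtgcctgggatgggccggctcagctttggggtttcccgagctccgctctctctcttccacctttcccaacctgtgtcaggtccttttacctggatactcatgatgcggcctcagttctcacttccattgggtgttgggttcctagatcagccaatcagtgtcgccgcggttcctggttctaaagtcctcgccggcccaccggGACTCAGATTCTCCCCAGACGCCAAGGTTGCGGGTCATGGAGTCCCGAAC
HCG26: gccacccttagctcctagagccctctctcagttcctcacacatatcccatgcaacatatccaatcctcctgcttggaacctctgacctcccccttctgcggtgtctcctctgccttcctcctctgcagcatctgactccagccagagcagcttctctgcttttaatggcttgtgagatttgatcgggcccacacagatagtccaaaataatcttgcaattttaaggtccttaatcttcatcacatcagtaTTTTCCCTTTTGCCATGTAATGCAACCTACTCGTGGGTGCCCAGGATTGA
MAGI2-AS3: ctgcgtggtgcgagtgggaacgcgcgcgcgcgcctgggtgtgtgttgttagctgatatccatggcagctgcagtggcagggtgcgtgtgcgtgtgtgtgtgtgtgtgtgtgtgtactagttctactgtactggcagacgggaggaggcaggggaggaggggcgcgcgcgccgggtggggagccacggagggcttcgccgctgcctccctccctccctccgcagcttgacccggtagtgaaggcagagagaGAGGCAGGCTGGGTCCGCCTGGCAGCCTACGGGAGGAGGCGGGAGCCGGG
LOC105373915: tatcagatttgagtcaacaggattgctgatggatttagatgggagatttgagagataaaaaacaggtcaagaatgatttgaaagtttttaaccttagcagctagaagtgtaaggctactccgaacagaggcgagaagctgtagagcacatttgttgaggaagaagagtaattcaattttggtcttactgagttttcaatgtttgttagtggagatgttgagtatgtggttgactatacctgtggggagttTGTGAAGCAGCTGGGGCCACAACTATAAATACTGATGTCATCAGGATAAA

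In RPTEC the HCP5 start lay under a peak in 4 of 4 SETD2KO and 1 of 4 SETD2-expressing libraries, the MAGI2-AS3 start in 1 of 4 and 1 of 4, and the HCG26 and LOC105373915 starts in none of the 8. The letters GGACT, a frequent form of the m6A consensus, or AGTCC on the other strand, occur in 44.2% of the 35116 start windows of 300 bases and in 43.7% of the 364 windows whose start lay under a lncRNA-only peak. Among the printed windows HCP5 holds GGACT at 1 place and AGTCC at 2, HCG26 holds AGTCC at 1, and the other 4 hold neither. No GGACT lies wholly within the 50 transcribed bases of any of these 6.

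Hairpins of microRNAs were rarely covered. Of 1562 hairpins in the RefSeq microRNA table, 7 lay wholly under a lncRNA-only peak, 3 of them in 1 library. The hairpin of MIR210, the microRNA best known for its induction in hypoxia (chr11:568089-568198, minus strand), was covered in 7 libraries, 3 of them SETD2-expressing and 2 SETD2KO in 786-O. The hairpin of MIRLET7I, of the let-7 family (chr12:62603686-62603769, plus strand), was covered in 6 libraries. Both are shown since no other hairpin was covered in more than 2 libraries, with the mature arms in capitals in the hairpin and the seed, bases 2 to 8, in capitals in the mature sequences.
MIR210 hairpin: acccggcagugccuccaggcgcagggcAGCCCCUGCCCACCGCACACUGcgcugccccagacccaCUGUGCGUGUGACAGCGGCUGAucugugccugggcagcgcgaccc
MIRLET7I hairpin: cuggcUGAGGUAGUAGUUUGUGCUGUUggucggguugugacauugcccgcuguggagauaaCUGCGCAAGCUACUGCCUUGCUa
hsa-miR-210-3p: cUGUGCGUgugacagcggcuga
hsa-miR-210-5p: aGCCCCUGcccaccgcacacug
hsa-let-7i-5p: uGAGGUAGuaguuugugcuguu
hsa-let-7i-3p: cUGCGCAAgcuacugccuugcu

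A peak was found in at least 1 library in 12.4% of lncRNA genes and in 67.3% of the 19122 protein-coding genes. Part of this gap is set by the rule, since 4095 lncRNA genes lie wholly inside protein-coding gene bodies and could not be called. Of the 13750 with at least 1 base outside, 16.1% were called, and so were 1457 of the 11228 that overlap no protein-coding gene. Of the 2216 lncRNA genes called, 538 (24.3%) were called in 1 library and 123 (5.55%) in all 16. For protein-coding genes the shares were 5.61% in 1 library and 34.0% in all 16, and over both classes together 29.8% of 15083 called genes were called in all 16. The 123 lncRNA genes had a median length of 31268 bp, against 15356 bp for all those called and 9025 bp for all in the table, and they held 32.9% of the lncRNA-only peaks. The median score percentile of a gene's highest peak was 73.2 in this group and 30.3 in genes called in 2 to 4 libraries.

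**Figure D1:**
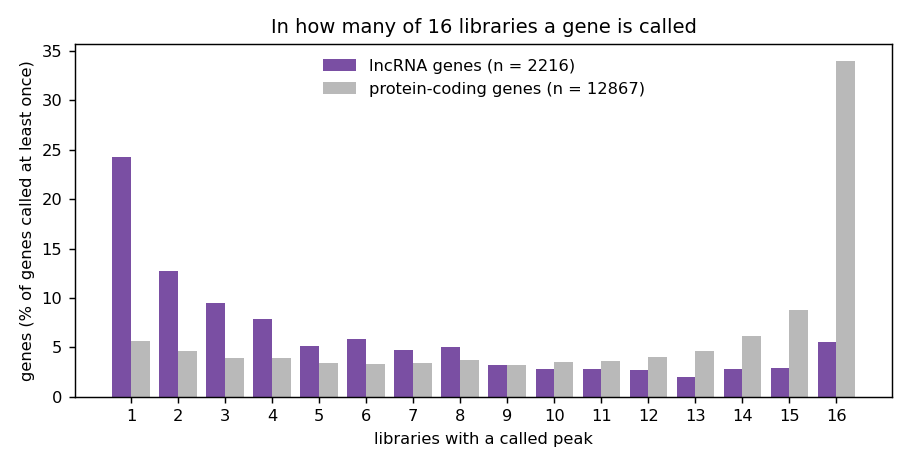
Number of libraries, 1 to 16, in which a gene had a called peak (horizontal axis), as a percentage of the lncRNA genes (purple) or protein-coding genes (grey) called at least once. The bars at 1 library stand at 24.3% and 5.61%, and those at 16 libraries at 5.55% and 34.0%.

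Within the same library, lncRNA-only peaks scored lower than peaks in protein-coding genes. The median score percentile was 40.4 ± 2.16 (SD, n = 16 libraries) for lncRNA-only peaks, from 37.7 to 44.6, and 51.9 ± 0.754 for peaks in protein-coding genes, from 50.3 to 52.9. It was lower in 16 of 16 libraries, with a mean difference of -11.6 (exact sign-flip permutation test, two-sided p = 3.05e-05, the smallest that 16 libraries allow, and 9.16e-05 after Benjamini-Hochberg adjustment over 3 measures). Of the lncRNA-only peaks, 53.4% ± 6.34 overlapped a peak of the other replicate of their line by at least 1 bp, against 57.9% ± 7.99 of the coding peaks. This replicate recall was lower in 14 of 16 libraries (exact sign-flip permutation p = 0.00195, adjusted 0.00293), and higher in replicate 1 of 786-O SETD2KO-2 and replicate 2 of RPTEC SETD2KO-1. The recalls of the 2 replicates of a line come from the same pair of lists and are not independent. With the replicates averaged first, recall and score percentile were each lower in 8 of 8 lines (exact sign-flip permutation p = 0.00781 for both, the smallest that 8 lines allow, adjusted 0.0117). The median widths, 397 bp ± 25.5 and 396 bp ± 22.6, differed by 0.594 bp (exact p = 0.773). Among the upper 50% of peaks by score, lncRNA-only peaks were 14.2 bp wider, which passed (adjusted exact p = 0.000946).

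**Figure D2:**
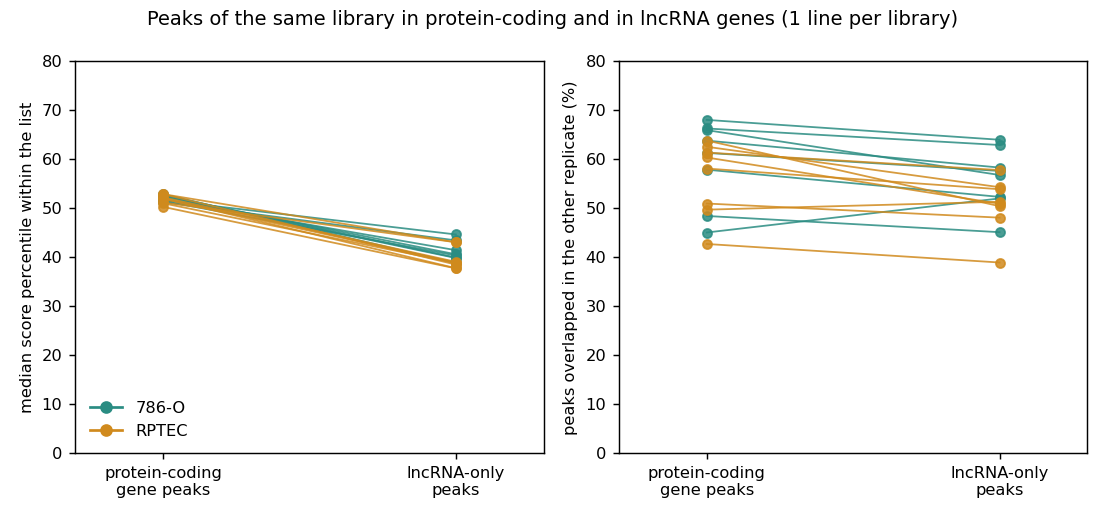
Median score percentile (left) and percentage of peaks overlapped in the other replicate (right) for protein-coding gene peaks and lncRNA-only peaks, with 1 line per library, 786-O in green and RPTEC in orange. All 16 lines fall in the left panel and 14 of 16 in the right.

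The genes called in all 16 libraries, ranked by the mean score percentile of their highest peak, were led by LHX1-DT, at 97.4. It is divergent from LHX1, a transcription factor of kidney development that also had peaks in all 16 libraries. LHX1-DT (chr17:36861674-36936661) had 1 to 8 peaks per 786-O library, with a median of 5, and 2 to 7 per RPTEC library, with a median of 3.5. LINC01322 followed at 96.1, with 1 to 6 peaks per library. MIR4435-2HG (chr2:111195866-111495161), a host transcript of the microRNA miR-4435, stood at 95.0 and had 7 to 19 peaks per 786-O library and 6 to 12 per RPTEC library. Of its 181 peaks 38 also lay in another lncRNA gene.

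MALAT1, the speckle lncRNA, had 1 to 3 peaks in every library and a mean percentile of 94.9. One region, chr11:65498845-65499705, over its promoter-table start inside the gene body, was called in all 16 libraries at a mean percentile of 89.9. A second, chr11:65500028-65500762, was called in 10 at a mean percentile of 14.4. NORAD, a cytoplasmic RNA that binds the PUMILIO proteins, had exactly 1 peak in every library, merging to chr20:36049737-36051116 at a mean percentile of 90.3. MAGI2-AS3 combined a region called in all 16 libraries, chr7:79459357-79459753, with the region over its promoter-table start, chr7:79453027-79454932. The latter was called in 4 of 4 SETD2KO and 3 of 4 SETD2-expressing libraries of 786-O and in 2 of 4 of each in RPTEC. APCDD1L-DT, divergent from APCDD1L, had 10 to 19 peaks in 786-O and 1 to 16 in RPTEC. Its RPTEC counts were 11, 16, 9 and 4 in the SETD2KO libraries and 2, 1, 3 and 5 in the SETD2-expressing ones, so that the groups overlapped.

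**Figure D3:**
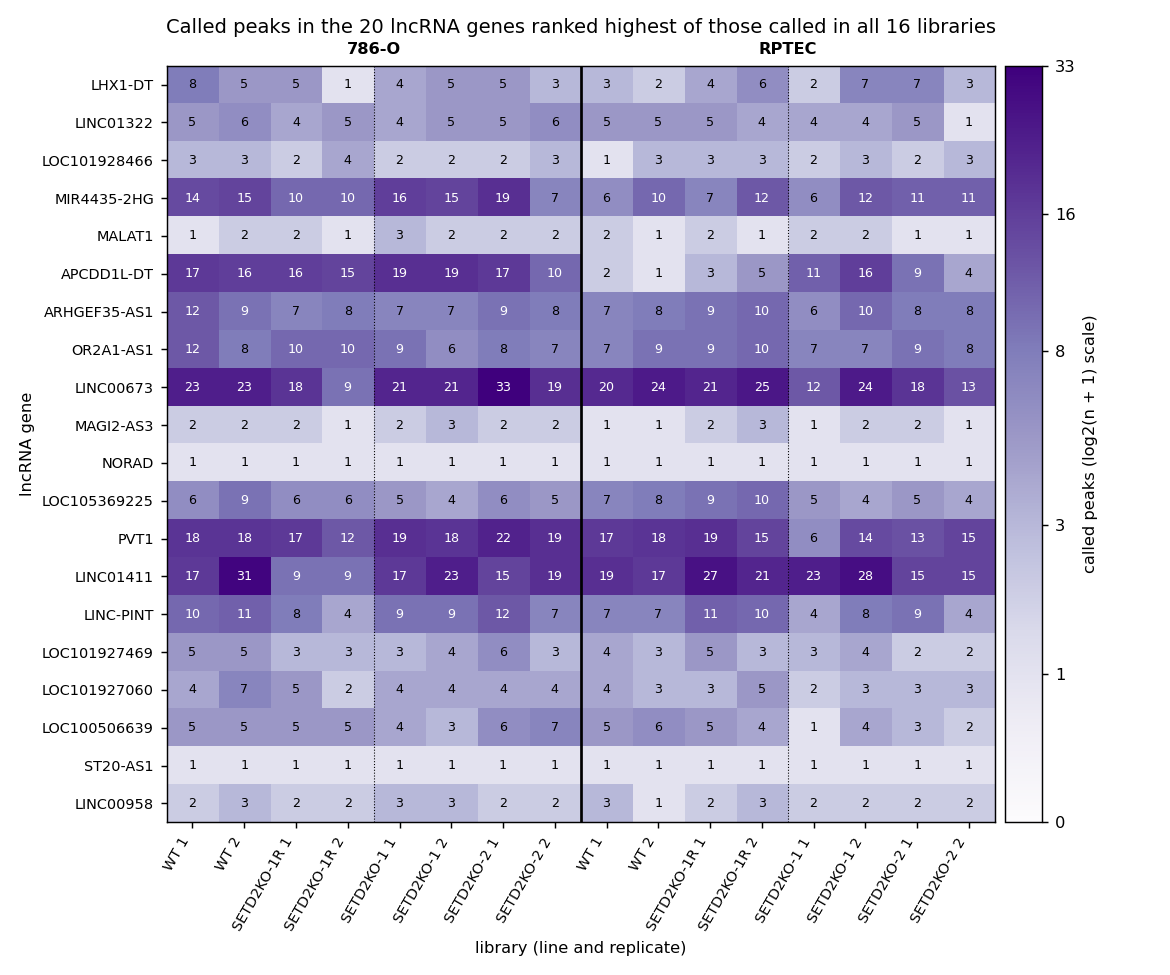
Number of called peaks in each library (columns, by cell line, line and replicate) for the 20 lncRNA genes with the highest mean score percentile among those called in all 16 libraries (rows, highest first), with colour on a log2(n + 1) scale. NORAD and ST20-AS1 have 1 peak in every library, while LINC00673 ranges from 9 to 33.

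The largest numbers of peaks fell in 5 long genes, which together held 5.60% of the lncRNA-only peaks. LINC00673 (chr17:72403322-72592804) had 324 peaks, 9 to 33 per library, and LINC01411 (chr5:174336354-174527139) had 305, 9 to 31 per library. PVT1, the neighbour of MYC, had 260 peaks, 6 to 22 per library. SLC38A4-AS1 had 216, with a median of 13.5 per library in both cell lines, and MIR4435-2HG had 181. In each of the 5 genes the counts of 786-O and RPTEC libraries overlapped. ARHGEF35-AS1 and OR2A1-AS1, also among the 20 highest, overlap each other and shared 79 of their 133 and 136 peaks, and ST20-AS1 shared 14 of its 16 with another lncRNA gene.

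Lists of well-known lncRNAs were called more often than lncRNA genes at large, where 12.4% were called and 0.689% were called in all 16 libraries. These shares are a description, as the lists were not matched to other lncRNA genes. Of 5 nuclear-retained genes in the table, 4 were called. MALAT1 and PVT1 were called in all libraries and NEAT1 in 15, with 0 to 6 peaks in 786-O and 3 to 5 in RPTEC. NEAT1 was without a peak in replicate 2 of 786-O SETD2KO-1R, and its highest peak stood at a mean percentile of 99.3 in the other 15. MEG3, an imprinted tumour suppressor transcript, had 3 and 1 peaks in the 2 RPTEC SETD2KO-1R libraries and none elsewhere. KCNQ1OT1 lies wholly inside a protein-coding gene body and could not be called under the rule, as was so for 18 members of the 5 lists in all.

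Of 33 small nucleolar RNA host genes, 14 (42.4%) were called. SNHG14, SNHG16 and SNHG5 were called in all 16 libraries, SNHG5 with 1 peak in each. SNHG22 was called in 8 of 8 786-O and 2 of 8 RPTEC libraries, and 10 of its 11 peaks also lay in another lncRNA gene. The remaining 10, ZFAS1 among them, were called in 1 to 5 libraries.

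Of 82 microRNA host genes, 35 (42.7%) were called, and 6 in all 16 libraries: MIR1915HG, MIR193BHG, MIR3936HG, MIR4435-2HG, MIR570HG and MIRLET7IHG. MIR210HG was called in 15 libraries and MIR22HG in 15. MIR31HG (chr9:21454268-21559798), the host of miR-31, was called in every 786-O library with 1 to 6 peaks. In RPTEC it had 7 and 7 peaks in WT, 9 and 7 in SETD2KO-1, 10 and 6 in SETD2KO-1R, and 0 and 0 in SETD2KO-2. The 2 knockout clones of RPTEC thus differed at this gene. Called in 786-O alone were MIR3667HG (8 libraries), MIR4500HG (7), MIR17HG (6), MIR9-2HG (5), MIR4453HG (3), MIR4458HG (2) and MIR4733HG (1). Called in RPTEC alone were MIR3142HG and MIR548A1HG (6 each), MIR100HG (5), MIR137HG (3) and MIR365BHG (1). Of all lncRNA genes called, 37.6% were called in 786-O alone and 15.1% in RPTEC alone, so that these names are not a result about microRNA hosts.

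Of 18 transcripts of the HOX clusters, which specify position along the body axis, 11 were called and none in all 16 libraries. HOXC-AS2 came closest with 1 peak in each of 15 libraries, all but replicate 2 of RPTEC SETD2KO-2. HOXD-AS2, HAGLROS and HOXB-AS1 were called in 3 to 5 RPTEC libraries and in none of 786-O. HOXC-AS1 was called in 2 libraries of 786-O and in none of RPTEC. Of all lncRNA genes called, 15.1% were called in RPTEC alone and 37.6% in 786-O alone. Of 10 cytoplasmic or cancer-associated lncRNAs, 8 were called, LINC-PINT and NORAD in all 16 libraries. OIP5-AS1 had 1 or 2 peaks in 13 libraries. CYTOR was called in 14 libraries, but all 25 of its peaks also lay in another lncRNA gene. LUCAT1, MIAT and PURPL were each called in 3 libraries, and all peaks of MIAT also lay in another lncRNA gene. CCAT1 was called in 6 RPTEC libraries and in none of 786-O. Of the 72 list members called, 0 were called in all libraries of one SETD2 status and in none of the other within a cell line, and 49 of all 2216 lncRNA genes called (2.21%) were, so that a count of 0 among 72 is not a result about the lists.

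786-O libraries had peaks in more lncRNA genes than RPTEC libraries. The number of lncRNA genes called ran from 751 to 1056 in 786-O, with a mean of 921 ± 103 (SD, n = 8), and from 531 to 723 in RPTEC, with a mean of 637 ± 70.7 (SD, n = 8). The groups did not overlap (exact permutation test, two-sided p = 0.000155, adjusted 0.00186 over 12 comparisons). The tests in this paragraph take the 8 libraries of a cell line as units, although they are 2 replicates of each of 4 related lines. With lines as units no exact permutation p can go below 0.0286. The line means, 812 to 1002 in 786-O and 579 to 712 in RPTEC, did not overlap. The difference of 284 genes was 86 genes when all lists were cut to equal length by score, where it no longer passed (exact permutation p = 0.0569, adjusted 0.206). The share of lncRNA-only peaks was 5.42% ± 0.672 in 786-O, from 4.51% to 6.64%, and 4.62% ± 0.627 in RPTEC, from 3.96% to 5.67% (exact permutation p = 0.0286, adjusted 0.114, ranges overlapping). The median width, 408 bp ± 27.7 against 386 bp ± 18.5, did not pass either (exact p = 0.0808), nor did the median score percentile, 41.1 against 39.6 (exact p = 0.166). With lists of equal length both differences passed, at 46 bp and 9.60 percentile points (adjusted exact permutation p = 0.0187 for both). The percentiles there were still those of the full lists, which held 24797 to 38317 peaks in 786-O and 18432 to 30341 in RPTEC. A longer list was cut to its higher percentiles, so the cut by itself raises the 786-O values. Both differences compare unlike upper fractions of the lists and are not read as differences between the cell lines. The difference in width also passed in the upper 50% by score, at 50.2 bp, and that in the share passed without LOC symbols, at 0.497 percentage points.

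In 25 lncRNA genes a peak was called in 8 of 8 786-O libraries and 0 of 8 RPTEC libraries, and in 15 genes the reverse. These 40 were the lncRNA genes that passed Fisher's exact test after adjustment over all 15083 genes (unadjusted exact p = 0.000155, adjusted 0.0128), since no weaker pattern passed. This test takes the 8 libraries of a cell line as units, although they are 2 replicates of each of 4 related lines. With lines as units the smallest exact p is 0.0286, and 0 of the 15083 genes passed (508 reached that unadjusted p). The 25 and 15 genes make up 1.13% and 0.677% of the lncRNA genes called, against 0.537% and 0.676% of all genes called. The share on the 786-O side was above that background and the share on the RPTEC side close to it. The 786-O genes with the highest percentiles were LINC01109, with 1 peak in every 786-O library, SMUG1-AS1, LINC02593, LOC102723490, LOC105374257, CH507-42P11.6, LOC112268234, LINC01504, MIF-AS1 and SLC2A1-DT. SMUG1-AS1 had 1 to 4 peaks per library and LOC102723490 (chr13:36675345-36789222) had 3 to 11. SLC2A1-DT, divergent from the gene of the glucose transporter GLUT1, had 1 to 4.

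The RPTEC genes were led by LOC105369308 (chr21:36632681-36698991), with 4, 5, 8 and 10 peaks in the SETD2-expressing and 5, 8, 7 and 9 in the SETD2KO libraries, followed by LOC101928570, LOC105376944, SMIM29-AS1 and SCHLAP1. SCHLAP1, a lncRNA known from aggressive prostate cancer, had 2, 1, 5 and 1 peaks in the SETD2-expressing and 13, 8, 6 and 6 in the SETD2KO libraries of RPTEC. These counts did not overlap, and 786-O had none. SETD2KO counts lay above in this way in 2.11% of lncRNA genes called in all 8 RPTEC libraries, beside 0.664% of all such genes. LOC105369225, given below, went the other way. Over all libraries 834 lncRNA genes (37.6%) were called in 786-O alone and 335 (15.1%) in RPTEC alone. Over all genes called these shares were 13.4% and 8.61%. A gene called in 1 library falls in 1 cell line by construction, as did 24.3% of lncRNA and 5.61% of protein-coding genes called. The part of this in the shares was not tested. With lists of equal length, 7 genes passed on the 786-O side and 5 on the RPTEC side, and without LOC symbols 16 and 5. Without WT replicate 1 or SETD2KO-1R replicate 2 of 786-O the counts rose to 76 and 27 or 70 and 26, and without WT replicate 1 or 2 of RPTEC to 61 and 32 or 57 and 31.

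SETD2KO libraries had a higher mean share of lncRNA-only peaks than SETD2-expressing libraries in both cell lines, but neither difference passed after adjustment. In RPTEC the share was 5.67% and 4.52% in SETD2KO-1 and 4.96% and 5.33% in SETD2KO-2, against 4.13% and 4.20% in WT and 4.20% and 3.96% in SETD2KO-1R. All 4 SETD2KO libraries lay above all 4 SETD2-expressing ones, 5.12% ± 0.491 against 4.12% ± 0.113 (SD, n = 4 each, exact permutation p = 0.0286, the smallest that 4 against 4 allow, adjusted 0.114). In 786-O the share was 5.67% and 5.87% in SETD2KO-1 and 5.10% and 6.64% in SETD2KO-2, against 4.51% and 4.72% in WT and 5.43% and 5.41% in SETD2KO-1R. Here SETD2KO-2 replicate 1 lay below both rescue libraries, and the means of 5.82% ± 0.636 and 5.02% ± 0.471 did not differ beyond the spread (exact permutation p = 0.114, adjusted 0.229). The SETD2 difference did not itself differ detectably between the cell lines (permutation within cell lines, p = 0.772).

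The number of lncRNA genes called was 948, 1056, 983 and 978 in the SETD2KO libraries of 786-O and 751, 872, 974 and 804 in the SETD2-expressing ones (exact permutation p = 0.0571, adjusted 0.171), with SETD2KO-1R replicate 1 inside the SETD2KO range. In RPTEC it was 723, 700, 690 and 543 against 627, 531, 624 and 659 (exact permutation p = 0.343). Width and score percentile of the lncRNA-only peaks did not differ beyond the spread between libraries by SETD2 status in either cell line (exact permutation p of 0.6 or above in all 4 comparisons).

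**Figure D4:**
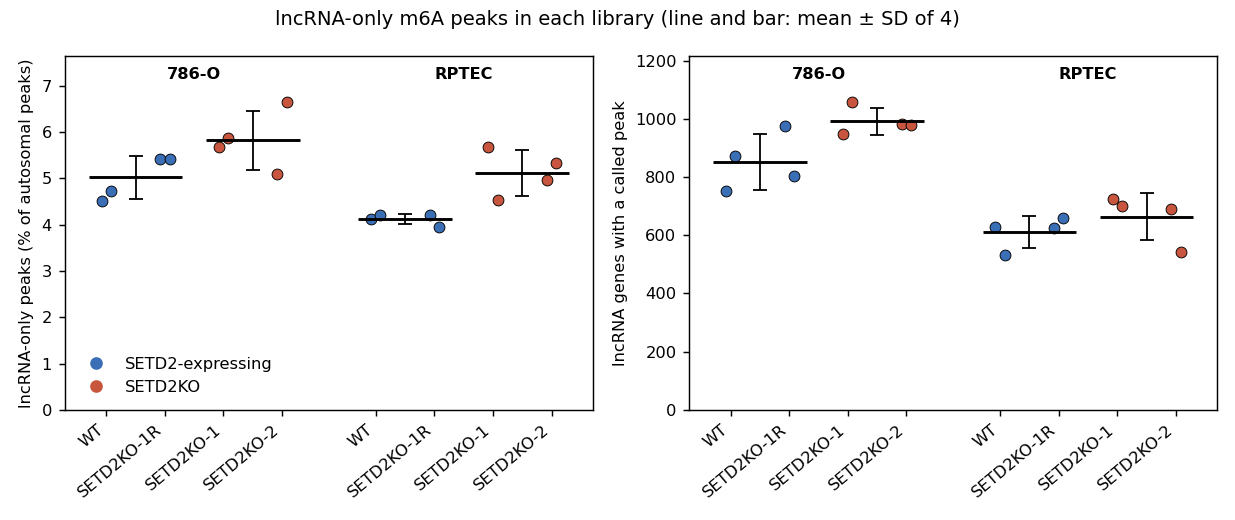
Share of autosomal peaks that are lncRNA-only, in percent (left), and number of lncRNA genes with a called peak (right), with 1 point per library by line and cell line, and the mean ± SD of the 4 SETD2-expressing (blue) and 4 SETD2KO (red) libraries in black. The RPTEC SETD2KO points lie above all RPTEC SETD2-expressing points on the left, and all 786-O points lie above all RPTEC points on the right.

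Most lncRNA genes called strictly by SETD2 status were called in the knockouts. In 786-O, 29 of 1881 lncRNA genes (1.54%) were called in all 4 SETD2KO and no SETD2-expressing library, and 3 (0.160%) in the reverse way. Over all genes called in 786-O these shares were 0.588% and 0.268%. In RPTEC, 17 of 1382 lncRNA genes (1.23%) were called in the knockouts alone and 3 (0.217%) in the SETD2-expressing libraries alone, where all genes gave 0.559% and 0.391%. No single gene passed Fisher's exact test (4 of 4 against 0 of 4 gives an exact p of 0.0286, the smallest this design allows, and an adjusted p of 1), although 32 lncRNA genes in 786-O and 20 in RPTEC reached that unadjusted p. The numbers of lncRNA genes called per library given above move the same way as these counts, and their part in the result was not tested. With lists of equal length the counts were 18 against 0 in 786-O and 11 against 1 in RPTEC, with 5 of the 29 and 5 of the 17 genes still among them. Genes with only a provisional LOC symbol made up 20 of the 29 and 11 of the 17, beside 44.9% and 43.6% of the lncRNA genes called in each cell line. Without them the knockout-only counts were 9 of 1036 (0.869%) in 786-O and 6 of 779 (0.770%) in RPTEC, and 1 gene in each was called in the SETD2-expressing libraries alone. Leaving out 1 library eased the criterion and raised the counts. The knockout-only count of 786-O rose to 51 without SETD2KO-2 replicate 1 and to 46 without SETD2KO-1R replicate 1, and that of RPTEC to 33 without SETD2KO-2 replicate 2 and to 28 without SETD2KO-1 replicate 2. Whichever library was left out, the counts for the SETD2-expressing libraries alone lay between 5 and 14 in 786-O and between 5 and 10 in RPTEC.

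HCP5 had the highest-scoring peaks of the 29 genes of 786-O. It had 2, 2, 1 and 2 peaks in the SETD2KO libraries of 786-O, 0 in all 4 SETD2-expressing libraries, and 1 or 2 in every RPTEC library, merging to chr6:31463055-31464666. SEMA3F-AS1, antisense to the semaphorin gene SEMA3F, had 1, 2, 1 and 3 peaks in these SETD2KO libraries and none in the other 12 libraries. LINC02015 had 3, 2, 1 and 4, and 1 in RPTEC SETD2KO-2 replicate 1. LOC101927960 (chr2:208542642-208825587) had 24, 20, 7 and 22 peaks, the most of any of these genes, and none elsewhere. Of its 73 peaks 18 also lay in other lncRNA genes. LOC124901968, LOC101927588, LOC105377927 and CBR1-AS1 complete the first 8. Of the 29 genes, 10 had exactly 1 peak in each SETD2KO library, and 13 (44.8%) were called in no RPTEC library, beside 44.3% of the 1881 lncRNA genes called in 786-O. They lie on 12 chromosomes, with 6 (20.7%) on chromosome 6, beside 5.32% of the 1881. Chromosome 6 was picked after its count was seen. It held 1 of the 17 knockout-only genes of RPTEC (5.88%), beside 6.73% of the 1382 called there.

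Of the 17 RPTEC genes, LINC01239 (chr9:22646200-22824213) had 3, 3, 4 and 3 peaks in the SETD2KO libraries and none in the other 12 libraries. LINC02930 (chr10:120608582-120825311) likewise had 4, 6, 7 and 3 peaks there and none elsewhere. UBE2R2-AS1 had 1, 2, 2 and 1 in RPTEC, and in 786-O 1 peak in 3 of 4 SETD2KO and 0 of 4 SETD2-expressing libraries. LOC105379263, LOC102724780 and LOC105372356 had peaks in both SETD2 states of 786-O. The genes called in the SETD2-expressing libraries alone had median score percentiles of 38.3 in 786-O and 31.0 in RPTEC. They were MYOSLID-AS1, LOC124902519 and LOC105373411 in 786-O, and ZNF625-ZNF20, LOC124902519 and LOC107987097 in RPTEC. ZNF625-ZNF20 and LOC107987097 were called in 8 and 7 of the 8 786-O libraries, SETD2KO included.

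**Figure D5:**
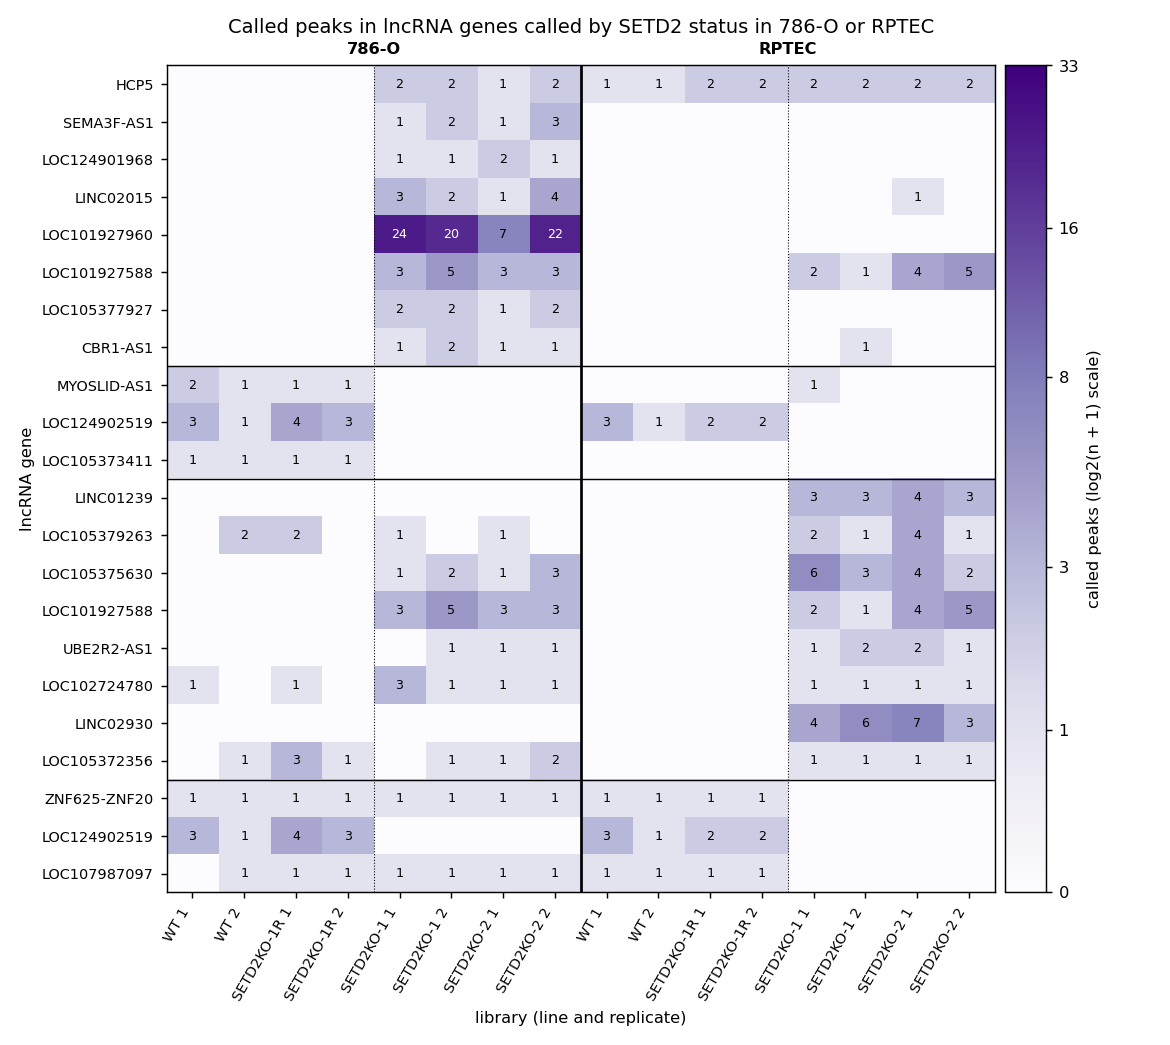
Number of called peaks in each library (columns, with SETD2-expressing libraries to the left and SETD2KO to the right of the dotted lines) for the named lncRNA genes called by SETD2 status, in 4 blocks from top to bottom: SETD2KO alone and SETD2-expressing alone in 786-O, then the same in RPTEC. LOC101927588 and LOC124902519 appear in both cell lines, and LOC101927960 has 7 to 24 peaks in the 786-O knockouts.

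Across the cell lines 2 lncRNA genes, LOC101927588 and LOC105375630, were called in the SETD2KO libraries alone in both. LOC101927588 had 3, 5, 3 and 3 peaks in 786-O and 2, 1, 4 and 5 in RPTEC, and LOC105375630 had 1, 2, 1 and 3 in 786-O and 6, 3, 4 and 2 in RPTEC. LOC124902519 (chr10:122954442-122973305) was called in the SETD2-expressing libraries alone in both. It had 3 and 1 peaks in WT and 4 and 3 in SETD2KO-1R of 786-O, 3 and 1 in WT and 2 and 2 in SETD2KO-1R of RPTEC, and 0 in all 8 SETD2KO libraries. No lncRNA gene was called in opposite ways in the 2 cell lines. Among protein-coding genes, 1 was called in the knockouts alone in both cell lines, 2 in the SETD2-expressing libraries alone in both, and 0 in opposite ways.

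The number of peaks per gene was also set against SETD2 status, in lncRNA genes called in all 8 libraries of a cell line. In RPTEC, the SETD2KO counts lay above all SETD2-expressing counts in 4 of 190 such genes (2.11%) and below them in 1, where all genes gave 0.664% and 1.67%. In 786-O it was 6 of 294 (2.04%) and 1, where all genes gave 1.45% and 0.867%. These genes were picked after their values were seen, and the differences were not tested. SLC38A4-AS1 had 19, 18, 15 and 15 peaks in the SETD2KO libraries of RPTEC and 9, 9, 12 and 12 in the SETD2-expressing ones. LOC105370777 had 11, 6, 6 and 11 against 1, 2, 1 and 1, and SCHLAP1 and MITA1 were the other two. LOC105369225 went the other way, with 5, 4, 5 and 4 against 7, 8, 9 and 10. In 786-O the 6 genes were FAM86B2-DT, ZFPM2-AS1, ERCC6L2-AS1, LOC105373220, LACTB2-AS1 and DGCR5, and the gene that went the other way was LINC00674. LOC105373220 had 11, 12, 12 and 11 peaks in the SETD2KO libraries and 1, 2, 5 and 2 in the SETD2-expressing ones.

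The same counts were taken over the 5904 regions to which overlapping lncRNA-only peaks merged, 94 of them called in all 16 libraries and 2504 (42.4%) in 1. In 786-O, 58 of 4543 regions (1.28%), under 52 genes or sets of overlapping genes, were called in the SETD2KO libraries alone and 3 (0.0660%) in the SETD2-expressing libraries alone. Regions of all autosomal peaks gave 0.473% and 0.154%. Those regions were merged from all peaks rather than from lncRNA-only peaks, so that the shares are not fully alike. In RPTEC it was 16 of 3288 regions (0.487%) and 4 (0.122%), against 0.264% and 0.219%. The 786-O region with the highest mean percentile, 90.0, was chr1:80612159-80612574 in LINC01781, called in all 4 SETD2KO libraries of 786-O and 1 SETD2KO library of RPTEC. Both following regions were picked after their values were seen. At ADAMTS9-AS2, where it overlaps LOC105377124, chr3:64957090-64957456 was called in the 4 SETD2KO libraries of 786-O and in 2 SETD2-expressing libraries of RPTEC. In the reverse direction, a region of LINC-PINT, the p53-induced transcript, chr7:131107299-131109014, was called in 4 of 4 SETD2-expressing and 0 of 4 SETD2KO libraries of RPTEC and in 7 of the 8 786-O libraries.

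The rescue line was then set beside the genes that changed between WT and both knockouts. In 786-O, 79 lncRNA genes (4.20%) were called in all 4 SETD2KO and neither WT library, where all genes gave 1.62%, and 28 (1.49%) in both WT and no SETD2KO library, where all genes gave 1.28%. Of the 79, 29 were called in no SETD2KO-1R library, 21 in 1 and 29 in both. Of the 28, 12 were called in no SETD2KO-1R library, 13 in 1 and 3 in both. In RPTEC, 38 lncRNA genes (2.75%) were called in the knockouts and not in WT, where all genes gave 1.46%, and 23 (1.66%) the other way, where all genes gave 1.21%. Of the 38, 17 were called in no SETD2KO-1R library, 11 in 1 and 10 in both. Of the 23, 11 were called in no SETD2KO-1R library, 9 in 1 and 3 in both. The calls gained were thus absent from both rescue libraries in 36.7% of the lncRNA genes in 786-O and 44.7% in RPTEC, beside 36.1% and 36.8% of the protein-coding genes chosen in the same way. The calls lost were back in both rescue libraries in 3 of 28 and 3 of 23 lncRNA genes, beside 34 of 148 and 48 of 135 protein-coding genes. These differences between gene classes were not tested. These comparisons share the knockout libraries with the counts above and are not independent of them.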

How the data were processed

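m6A peaks of 16 IP libraries were analysed as deposited, 1 list per library. The authors used STAR for alignment and HTSeq for quantification, normalized to E. coli RNA, and called IP peaks against Input by MACS2, and the submitters' processing notes give the build as hg38. Per the file headers and values, the deposited lists hold a whole-number score per peak of unstated scale and a summit position. The lists hold no counts, so depth and its precision are unknown. The Input samples were not used here.

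Starts were made 1-based and peaks on chromosomes 1 to 22 kept. Peak midpoints were assigned to gene bodies of the RefSeq table (GRCh38.p14, 59792 genes). Groups came from the sample titles. Library measures were tested by two-sided exact permutation, with Benjamini-Hochberg adjustment over 12 comparisons (threshold 0.05), gene calls by Fisher's exact test adjusted over all called genes, and lncRNA with coding peaks by exact sign-flip tests. Alternatives were the upper 50% by score, lists of equal length, summits, peaks clear of or 5000 bp from coding genes, any overlap, no LOC symbols, leaving out libraries singly and a replicate block. Counting peaks in 1 lncRNA gene alone, averaging replicates before the paired tests and gene counts without LOC symbols were added after seeing the data.

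Named genes were, by mean score percentile, the first 20 called in all libraries, the first 10 a direction called in 8 of 8 against 0 of 8 libraries, the first 8 called in 4 of 4 against 0 of 4, the 5 with most peaks, and called members of the 5 lists. The members, lists and tests were chosen with earlier results of these data known. The steps were tested on simulated data. Tables were handled with pandas 2.3.3 and NumPy 2.4.6 under Python 3.11.15, tests run with SciPy 1.17.1 and plots drawn with Matplotlib 3.10.9. The differential analysis of reads was not repeated, and no genome was used.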

Additional observations from a re-analysis of the deposited data

Results flagged for a closer look

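In RPTEC, WT replicate 2 stood apart from the other 3 SETD2-expressing libraries in the median score percentile of its lncRNA-only peaks, at 43.1, where the others lay between 38.5 and 38.9. The gap to the nearest of them was 0.907 of the range of the 4 libraries. It was the only one flagged of 24 groups checked, and chance alone flags about 1 in 20.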

How the results depend on the processing

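The number of lncRNA genes was higher in 786-O than in RPTEC under every alternative that gave it, but with lists cut to equal length by score the difference of 86 genes no longer passed. Differences between the cell lines of 46 bp in width and 9.60 in score percentile then passed. That percentile was still taken within the full lists, so the cut by itself raised it in longer lists. For the cell lines, 50.2 bp in width in the upper 50% by score and 0.497 percentage points in the share without LOC symbols also passed. So did 14.2 bp between lncRNA-only and coding peaks in the upper 50%. The sign turned, without a test passing, for the paired width at the summit (-0.969 bp) and 5000 bp from coding genes (-3.62 bp), for the SETD2 difference in RPTEC in width (-3.12 bp) and score percentile (1.14) in the upper 50%, and for the SETD2 difference in 786-O in score percentile in the upper 50% (-0.117) and 5000 bp from coding genes (-0.419). The causes were not tested.

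In the upper 50%, 46 lncRNA genes were called in every library, 9 and 3 passed the cell line test, and 17 in 786-O and 4 in RPTEC were called in the knockouts alone, sharing 4 and 1 genes with the main counts. With lists of equal length these were 77, 7 and 5, and 18 and 11, with 0 and 1 called in the SETD2-expressing libraries alone. Without LOC symbols, added after seeing the data, fewer genes were tested, and the cell line test gave 16 and 5 genes, the knockout-only counts 9 and 6 and the reverse counts 1 and 1. Under summits, any overlap, 5000 bp from coding genes and peaks in 1 lncRNA gene alone, all 7 counts stayed within 1.5 times. Averaging the replicates of a line before the paired tests, added after seeing the data, changed no call.

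With each library left out in turn, the cell line test gave 25 to 76 genes for 786-O and 15 to 32 for RPTEC. The knockout-only counts ran from 32 to 51 in 786-O and from 19 to 33 in RPTEC. The counts for SETD2-expressing libraries alone ran from 5 to 14 and from 5 to 10. A count over 3 against 4 libraries is met more easily by construction. The paired width ran from -0.300 to 1.70 bp, the SETD2 difference in width from -10.0 to 18.8 bp in 786-O, and that in score percentile from -0.707 to 1.24 in 786-O and from -1.64 to 0.657 in RPTEC.

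The replicate numbers did not pair the libraries, since deviations of same-numbered libraries correlated at -0.0322 to 0.0963 in 786-O and at -0.0913 to 0.108 in RPTEC. With the replicate number as a block the cell line counts stayed at 25 and 15 genes, the adjusted p for the number of lncRNA genes was 0.0049, and the RPTEC difference in share of 0.998 points had an exact permutation p of 0.0556, the smallest that block allows. The block changed no call.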
